A study of Homo sapiens with 2 samples.

Results

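The genes described here are 8 transcripts of immune checkpoint and adenosine signalling: CD274, CD276, CD47, PVR, LGALS1, LGALS9, NT5E and ADORA2B. They were taken by symbol from the deposited feature table, in which each matched 1 of 36601 human features, and all 8 passed the filter on low counts in every comparison. The sections came from 2 tumors of MDA-MB-231, a long-established human breast cancer line that lacks hormone receptors, here carrying a hypoxia fate-mapping reporter that marks cells once they have met low oxygen. Both tumors (Tumor-897 and Tumor-899, here tumor 1 and tumor 2) were untreated, were harvested on day 18 after implantation, and form a single group (n = 2), so every contrast lay within a section. Frozen sections of 10 µm were placed on Visium slides, where each spot collects RNA from a small region that can hold several cells. The study asked about hypoxia-associated programs of cells that have left hypoxic regions, but fluorescence was not used here, and spots were placed by a transcript score and by position. The host strain and whether each section came from its own animal are not given in the sources used here.

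Tumor cells can hold off immune attack through surface proteins read by receptors on T cells, natural killer (NK) cells and macrophages. PD-L1, encoded by CD274, binds PD-1 on T cells. CD47 binds SIRPA on macrophages and restrains phagocytosis. B7-H3 (CD276) is a further B7 family ligand, and the poliovirus receptor CD155 (PVR) binds the T cell and NK cell receptors TIGIT, CD96 and CD226. Galectins are sugar-binding proteins, of which galectin-1 (LGALS1) and galectin-9 (LGALS9) can act on T cells after secretion. In the adenosine arm, CD73 (NT5E) converts extracellular AMP to adenosine, and ADORA2B is a low-affinity adenosine receptor. Hypoxia-inducible factors are known regulators of several of these genes in cultured cells.

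The counts are unique molecular identifiers (UMIs), 58661164 over 2536 spots in tumor 1 and 39736292 over 2846 spots in tumor 2, of which the 2841 with 500 or more UMIs were kept. A low-UMI area took up 22.3% of the spots of tumor 1 and 30.1% of those of tumor 2. The line's defining transcripts were high in both sections (VIM at 5639 and 5548 CPM, the UMIs per 1000000 UMIs of the section, and CD44 at 405 and 449), and ESR1 was at 0.119 and 0.126 CPM. ERBB2 and EPCAM, listed as low in this line, were at 26.2 and 19.7 CPM in tumor 1. Lymphocyte markers were near 0: of 14 listed, CD8B, GZMB and MS4A1 had no UMI in either section, CD3E was at 0 and 0.101 CPM, and CD3D and CD8A were the highest at 1.79 to 2.71 CPM. The features are human only, and host transcripts are counted only where their reads were assigned to a human gene. Low values therefore do not show that host lymphocytes were absent, and the same limit holds for all markers of other cells below. The 2 sections share 1627 barcodes, which mark array positions and not cells.

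The members lie on different chromosomes of GRCh38.p14, apart from ADORA2B and LGALS9, which share chromosome 17. RefSeq places CD274 at chr9:5450542-5470554, CD47 at chr3:108043091-108091031, CD276 at chr15:73683944-73714514 and PVR at chr19:44643910-44666162. NT5E spans chr6:85450083-85495784, ADORA2B chr17:15850362-15975746, LGALS1 chr22:37675636-37679802 and LGALS9 chr17:27631188-27649560. The 250 bases upstream of a listed RefSeq transcript start are shown for the 4 members with a promoter entry that passed a test below, because they differed in the direction in which they followed the score or the tissue border. They are RefSeq sequences on GRCh38.p14, read 5′ to 3′ on the gene's strand, and capitals mark the hypoxia response core (ACGTG or GCGTG, on either strand).
NT5E: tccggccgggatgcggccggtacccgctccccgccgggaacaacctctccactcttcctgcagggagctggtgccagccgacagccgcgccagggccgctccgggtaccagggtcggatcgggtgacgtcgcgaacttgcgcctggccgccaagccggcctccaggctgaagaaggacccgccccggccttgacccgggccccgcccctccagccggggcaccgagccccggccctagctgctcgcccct
ADORA2B: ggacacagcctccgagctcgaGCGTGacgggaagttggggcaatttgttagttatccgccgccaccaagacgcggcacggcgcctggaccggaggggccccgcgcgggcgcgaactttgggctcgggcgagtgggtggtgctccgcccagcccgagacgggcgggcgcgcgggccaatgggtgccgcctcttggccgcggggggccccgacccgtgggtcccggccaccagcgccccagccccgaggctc
CD47: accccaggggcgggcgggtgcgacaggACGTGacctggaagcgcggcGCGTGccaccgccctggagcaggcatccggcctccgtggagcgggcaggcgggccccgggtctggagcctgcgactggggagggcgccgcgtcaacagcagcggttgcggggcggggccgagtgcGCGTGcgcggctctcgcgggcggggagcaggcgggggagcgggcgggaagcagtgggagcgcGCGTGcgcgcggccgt
LGALS9: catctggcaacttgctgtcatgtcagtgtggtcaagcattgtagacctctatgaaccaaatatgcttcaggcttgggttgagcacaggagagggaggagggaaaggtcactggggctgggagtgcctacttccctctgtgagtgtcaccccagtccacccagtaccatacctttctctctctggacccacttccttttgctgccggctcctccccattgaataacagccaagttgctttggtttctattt
The window of NT5E is chr6:85449833-85450082 (plus strand), that of ADORA2B chr17:15944880-15945129 (plus), that of CD47 chr3:108091032-108091281 (minus) and that of LGALS9 chr17:27630938-27631187 (plus). The start listed for ADORA2B lies 94768 bases inside the span given above, whereas those of the other 3 are ends of their spans. The core was found 4 times in the CD47 window, with first bases 223, 203, 78 and 16 bases before the start. ADORA2B held it once, 229 bases before its listed start, and the windows of NT5E and LGALS9 held none. Of 35116 upstream windows of the same length, 43.2% held at least 1 core, so its presence is common. CD274 and PVR had no match either, and of the 2 listed starts of CD276 the window of 1 held a single match. An interferon-type site (TTCNNNGAA, on either strand), present in 6.57% of all windows, was found among members in the window of CD274 alone, at 1 place. GC boxes (GGGCGG, on either strand; 42.6% of windows) numbered 6 for CD47, 2 for NT5E and 2 for ADORA2B. No match shows only that these letters are not in the window.

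Along hypoxia, the adenosine enzyme and the adenosine receptor ran in opposite directions: NT5E transcripts were most abundant where the hypoxia score was highest and ADORA2B transcripts were least abundant there, in both tumors. The score was the mean standardised level of 28 hypoxia genes, none of them a member, averaged over adjacent spots. Spots of each tumor were ranked by it into 8 levels of equal size (317 spots each in tumor 1, 355 or 356 in tumor 2). Values per level are CPM of all UMIs of that level, with an exact 95% counting interval, and carry no test, because levels of a section are not replicates. With totals as the scaling, the median log2 fold change of all genes from the lowest to the highest quartile of the score was -0.11. Falls of about that size along the levels are therefore not particular to a member.

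NT5E in tumor 1 was at 484, 480.0, 492, 499, 539, 549, 553 and 639 CPM from level 1 to level 8. In tumor 2 it was at 531, 519, 553, 542, 555, 527, 529 and 589.6 CPM. Both tumors thus had their lowest value at level 2 and their highest at level 8, and the interval at level 8 (619 to 659 CPM in tumor 1, 569 to 611 CPM in tumor 2) lay above that at level 2 (466 to 494 and 497 to 542 CPM). The values climbed level by level in tumor 1 from level 2 on, with a Spearman rho of 0.98 over the 8 levels, and the top level alone stood out in tumor 2, where rho was 0.33 and levels 1 to 7 stayed within 519 to 555 CPM.

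ADORA2B in tumor 1 was at 41.5 CPM at level 1 (interval 37.5 to 45.9) and 37.7 at level 2, stood between 30.2 and 33.0 CPM from level 3 to level 7, and was at 28.3 CPM (24.3 to 32.7) at level 8. In tumor 2 the 8 values were 42.4, 33.6, 32.1, 40.0, 38.6, 35.9, 33.8 and 28.7 CPM. With these levels the top-to-bottom differences in log2(CPM + 1) of the tumors were -0.54 and -0.55, and rho was -0.95 in tumor 1 and -0.43 in tumor 2. The differences were -0.43 and -0.20 with 4 levels, and -0.42 and -0.21 with the score not smoothed, a move of over 1.5 times in their mean (from -0.54 to -0.32 in both cases). The interval of level 1 in tumor 2 (33.4 to 53.0 CPM) was wide, since that level held 76 UMIs of ADORA2B, and it overlapped slightly with that of level 8 (24.3 to 33.6), whereas those of tumor 1 did not overlap. In tumor 2, 70.2% of the spots of level 1 lay in the low-UMI area, against 5.36% in tumor 1, and leaving out that area kept the highest value at level 1 and the lowest at level 8 in both tumors (46.0 and 29.2 CPM in tumor 2).

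**Figure D1:**
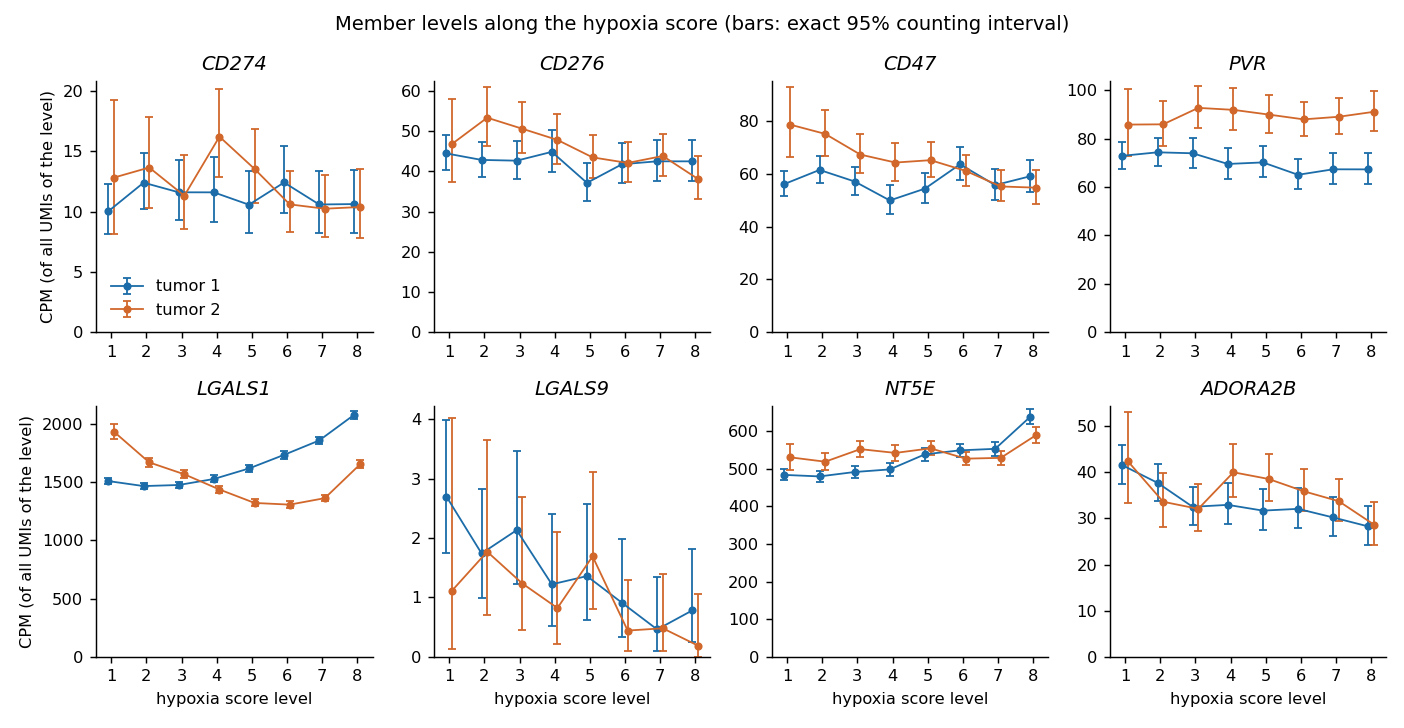
CPM of the 8 members (vertical axes, each from 0) along the 8 levels of the hypoxia score (horizontal axes, lowest to highest) in tumor 1 and tumor 2, with exact 95% counting intervals. NT5E peaks at level 8 in both tumors, ADORA2B and LGALS9 are low there, and LGALS1 follows a different course in each tumor.

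Of the surface ligands, CD274, PVR and CD276 varied little along the score in tumor 1. CD274 lay between 10.0 and 12.4 CPM over the 8 levels of tumor 1, with all intervals overlapping. In tumor 2 it ranged from 10.2 CPM at level 7 to 16.2 CPM at level 4, from 23 to 80 UMIs per level, and levels 6 to 8 held its 3 lowest values (10.6, 10.2 and 10.4 CPM). PVR was at 65.1 to 74.4 CPM in tumor 1, drifting down (rho -0.83), and at 85.9 to 92.8 CPM in tumor 2, so its highest level in tumor 1 stayed under its lowest in tumor 2. The top-to-bottom log2 difference of PVR in tumor 1 was -0.11, about the shift of the median gene given above. CD276 in tumor 1 was at 37.1 to 44.9 CPM (rho -0.64), and in tumor 2 it was at 53.4 CPM at level 2 and 38.1 at level 8 (rho -0.79). Without the low-UMI area the rho of CD276 was -0.19 in tumor 1 and -0.86 in tumor 2.

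CD47 in tumor 2 was at 78.6 CPM at level 1 and then at 75.1, 67.3, 64.2, 65.1, 61.1, 55.2 and 54.7 CPM (rho -0.98), and the intervals of level 1 (66.2 to 92.7) and level 8 (48.6 to 61.4) did not overlap. Leaving out the low-UMI area brought level 1 of tumor 2 to 67.3 CPM, with the highest value at level 2 and the lowest at level 7, and the top-to-bottom log2 difference there from -0.51 to -0.27. In tumor 1 CD47 was at 56.1 CPM at level 1 and 59.1 at level 8. Its lowest value was at level 4 (49.9, interval 44.6 to 55.6) and its highest at level 6 (63.6, interval 57.6 to 70.0). These intervals did not overlap. Other-cell markers made up 0.550% of UMIs at level 1 of tumor 2 and 0.172% at level 8. In tumor 1 the same shares were 0.178% and 0.210%.

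LGALS1, an abundant transcript with 96207 UMIs in tumor 1 and 58696 in tumor 2, took different courses in the tumors. In tumor 1 it was at 1468 CPM at level 2 and at 1528, 1619, 1736, 1860 and 2081 CPM at levels 4 to 8 (rho 0.93). In tumor 2 it was highest at level 1 (1934 CPM), lowest at level 6 (1308 CPM) and at 1653 CPM at level 8. Counting error is small against these steps: the intervals at levels 1, 6 and 8 of tumor 2 were 1870 to 1999, 1281 to 1335 and 1619 to 1688 CPM. Higher values at level 8 than at level 6 were thus seen in both tumors and the high value at the low end in tumor 2 alone. Leaving out the low-UMI area left level 1 of tumor 2 at 1885 CPM.

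LGALS9 was scarce, with 88 UMIs in tumor 1 and 36 in tumor 2, and was low at the high-score end in both tumors. In tumor 1 the 8 levels held 25, 16, 16, 8, 9, 6, 3 and 5 UMIs, or 2.70 CPM at level 1 and 0.781 at level 8 (rho -0.93). In tumor 2 they held 2, 7, 6, 4, 10, 3, 3 and 1 UMIs, with 1.77 CPM at level 2, 1.69 at level 5 and 0.189 at level 8 (rho -0.74). Leaving out the low-UMI area kept the highest value at level 1 in tumor 1 and put it at level 5 in tumor 2. The near-identical copies LGALS9B and LGALS9C had 7 and 6 UMIs in tumor 1 and 3 and 0 in tumor 2, and reads shared among the copies make the LGALS9 counts uncertain.

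Summed over zones, NT5E was higher and LGALS9 lower in the high-score zone, and the other 6 members did not pass the test. Zones were the quartiles of highest and lowest score within each tumor (634 spots a side in tumor 1, 711 in tumor 2). The UMIs of each zone were summed within a tumor and compared by edgeR's quasi-likelihood test with the tumor as a block and Benjamini-Hochberg adjustment over 14149 genes. Of all genes tested, 6.81% were called higher and 4.86% lower at an adjusted p of 0.05, and of the 8 members 1 was called in each direction, counts too small to be read against that background. The members' median log2 fold change was -0.07, against 0.00 over all genes, and 3 of 8 had the same sign in both tumors. The block leaves 1 residual degree of freedom, so the p-values rest largely on spread borrowed across genes and little on each gene's own spread. They cover only these sections, whose differences may be technical. In a spot, fewer cells of a type and less RNA per cell cannot be told apart.

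In tumor 1, NT5E stood at 474 CPM where the score was low and 639 CPM where it was high, and in tumor 2 at 491 and 562 CPM (TMM-scaled CPM here and in all zone values below). Both high zones lay above both low zones. The log2 fold change was 0.31 ± 0.09 (SE of the edgeR fit, n = 2 tumors, edgeR adjusted p = 0.044), or 0.43 in tumor 1 and 0.19 in tumor 2. This SE, like each one below, comes from the fit, with spread borrowed across genes. It does not measure how far the 2 tumors differ. Between the top and bottom decile of the score it was 0.48 (edgeR adjusted p = 0.0036). The call was lost with tertiles (0.26, edgeR adjusted p = 0.072), with library size alone as the scaling (0.20, edgeR adjusted p = 0.15), with spots thinned to 2000 UMIs (edgeR adjusted p = 0.12), without the tumor block (edgeR adjusted p = 0.16) and in DESeq2 (adjusted p = 0.16). Scaling by library size moved the median of all genes to -0.11 and the split of calls from 963 higher and 687 lower to 531 and 1476, so the difference for NT5E is best read relative to that shift.

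LGALS9 had 41 UMIs in the low and 8 in the high zone for tumor 1, and 9 and 4 UMIs for tumor 2. Its level in the high zone was 0.279 times that in the low zone in tumor 1 (exact 95% counting interval 0.113 to 0.603, on library totals) and 0.221 times in tumor 2 (0.0496 to 0.790). The fitted log2 fold change was -1.82 ± 0.46 (edgeR adjusted p = 0.031), lower in both tumors. With the spots richest in other-cell markers left out it was -2.15 (edgeR adjusted p = 0.0070). The call rests on 62 UMIs in all, was lost without the tumor block (adjusted p = 0.063), and was not testable with thinned spots, with deciles or with depth-matched spots, where the filter on low counts removed the gene.

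ADORA2B was at 39.0 CPM in the low and 31.4 CPM in the high zone of tumor 1, and at 34.2 and 31.9 CPM in tumor 2. Both high zones were under both low zones, yet the log2 fold change of -0.22 ± 0.10 did not pass (edgeR adjusted p = 0.21). LGALS1 went from 1463 to 2113 CPM in tumor 1 and from 1648 to 1510.0 CPM in tumor 2, so the tumors had opposite signs (0.53 and -0.13; fit 0.20 ± 0.13, edgeR adjusted p = 0.35). CD47 went from 57.7 to 61.5 CPM in tumor 1 and from 71.6 to 55.6 CPM in tumor 2 (edgeR adjusted p = 0.52), CD276 from 42.9 to 45.6 and from 48.2 to 41.6 CPM (edgeR adjusted p = 0.80), and CD274 from 11.0 to 11.4 and from 12.6 to 10.4 CPM (edgeR adjusted p = 0.75). The sign of these 3 ligands in tumor 1 depended on the scaling: slightly higher in the high zone with TMM, but lower on library totals, where the ratio of high over low was 0.976 for CD47, 0.973 for CD276 and 0.946 for CD274 in tumor 1, and 0.723, 0.804 and 0.767 in tumor 2. The ratios of LGALS1 on library totals were 1.32 and 0.854, opposite in the tumors as with TMM. PVR was at 72.4 and 72.3 CPM in tumor 1 and at 80.8 and 90.9 in tumor 2 (log2 0.08, edgeR adjusted p = 0.59), and its sign turned to -0.04 with library size alone. Markers of other cells were 0.171% of UMIs in the low and 0.196% in the high zone of tumor 1, but 0.394% and 0.159% in tumor 2. The low-UMI area held 55.3% of low-zone and 10.3% of high-zone spots in tumor 2, against 9.78% and 19.1% in tumor 1. The part of these differences in the values of either tumor was not tested.

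**Figure D2:**
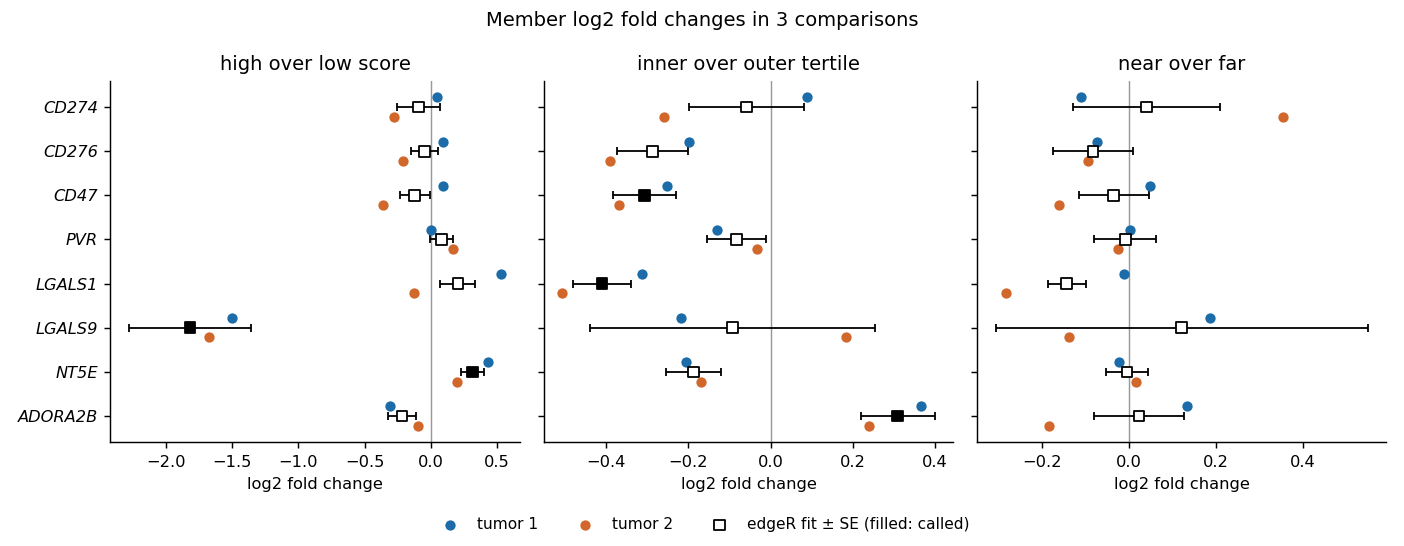
Log2 fold changes of the 8 members (horizontal axes) in 3 comparisons within the sections, for tumor 1, tumor 2 and the edgeR fit ± SE, with filled squares for members called at an adjusted p of 0.05. NT5E (0.31) and LGALS9 (-1.82) were called by score, LGALS1 (-0.41), CD47 (-0.31) and ADORA2B (0.31) by depth in the tissue, and none beside the hypoxic zone.

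With depth in the tissue, LGALS1 and CD47 fell and ADORA2B rose. This comparison used position alone: the inner against the outer tertile of spots by steps to the tissue border (848 and 919 spots in tumor 1, 979 and 997 in tumor 2). Of 14758 genes tested, 2.3% were called higher and 3.36% lower inside, and of the 8 members 1 was higher and 2 were lower. The members' median log2 fold change was -0.14 against 0.00 over all genes, and 6 of 8 had the same sign in both tumors.

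LGALS1 was at 1882 CPM in the outer and 1514 CPM in the inner tertile of tumor 1, and at 1696 and 1193 CPM in tumor 2. Both inner values lay under both outer ones, with a log2 fold change of -0.41 ± 0.07 (edgeR adjusted p = 0.0011). Among the members this call was the one that DESeq2 also made (adjusted p = 0.0030), and without the tumor block it was lost (edgeR adjusted p = 0.35). Fibroblast markers, 13 of 13 detected in the outer tertiles, were also lower inside, where DPT was at 0 in both tumors: their summed level went from 1490 to 556 CPM in tumor 1 and from 2019 to 409 CPM in tumor 2, and 9 of 11 tested were called lower. Macrophage markers (7 of 10 tested) and muscle markers (8 of 8) were called lower inside as well, the latter at 15.8 and 11.7 CPM in tumor 1 and at 458 and 26.3 CPM in tumor 2. Without the spots richest in other-cell markers, LGALS1 was still lower in the inner tertile by 0.30 on the log2 scale (log2 -0.30, edgeR adjusted p = 0.0026).

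CD47 was at 65.1 CPM in the outer and 54.6 CPM in the inner tertile of tumor 1, and at 69.8 and 54.0 CPM in tumor 2 (log2 -0.31 ± 0.08, edgeR adjusted p = 0.020). Both tumors reached a like inner level, under both outer levels. Without the spots richest in other-cell markers the difference was -0.19 and the call was lost (edgeR adjusted p = 0.13), a change of over 1.5 times. It was also lost with the tissue split at the median step in place of tertiles (-0.19, edgeR adjusted p = 0.097), and with thinned spots, library size alone, no tumor block and DESeq2. CD276 showed a like difference that just missed the threshold, from 46.4 to 40.4 CPM in tumor 1 and from 47.6 to 36.3 CPM in tumor 2 (log2 -0.29 ± 0.09, edgeR adjusted p = 0.054).

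ADORA2B was at 31.6 CPM in the outer and 40.7 CPM in the inner tertile of tumor 1, and at 31.5 and 37.2 CPM in tumor 2. The outer levels of the tumors were nearly equal and both inner levels lay above them (log2 0.31 ± 0.09, edgeR adjusted p = 0.049). The call was marginal: it was lost without the spots richest in other-cell markers (0.26, edgeR adjusted p = 0.064), with the median split (0.24, adjusted p = 0.076), with thinned spots, library size alone and no tumor block, and in DESeq2. The low-UMI area made up 42.1% of the inner spots of tumor 1 and 56.6% of those of tumor 2, and without it the difference was 0.33 (edgeR adjusted p = 0.018).

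NT5E was lower in the inner tertile, going from 575 to 498 CPM in tumor 1 and from 566 to 504 CPM in tumor 2, which did not pass (log2 -0.19 ± 0.07, edgeR adjusted p = 0.11). Without the low-UMI area it did (log2 -0.22, edgeR adjusted p = 0.042). The adenosine enzyme and receptor thus had opposite signs by position in each tumor, but in the reverse of their directions by score. NT5E was higher and ADORA2B lower with a high score, whereas NT5E was lower and ADORA2B higher inside. In the reported fits NT5E alone of these 2 genes was called by score, and ADORA2B alone by position. CD274 (log2 -0.06), PVR (-0.08) and LGALS9 (-0.09) had edgeR adjusted p-values of 0.87, 0.58 and 0.92. In tumor 1, 24.1% of inner and 29.4% of outer spots lay in the high-score zone, and in tumor 2 the shares were 19.9% and 24.5%. Of 10 hypoxia genes outside the score, 5 were called higher in the inner tertile.

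**Figure D3:**
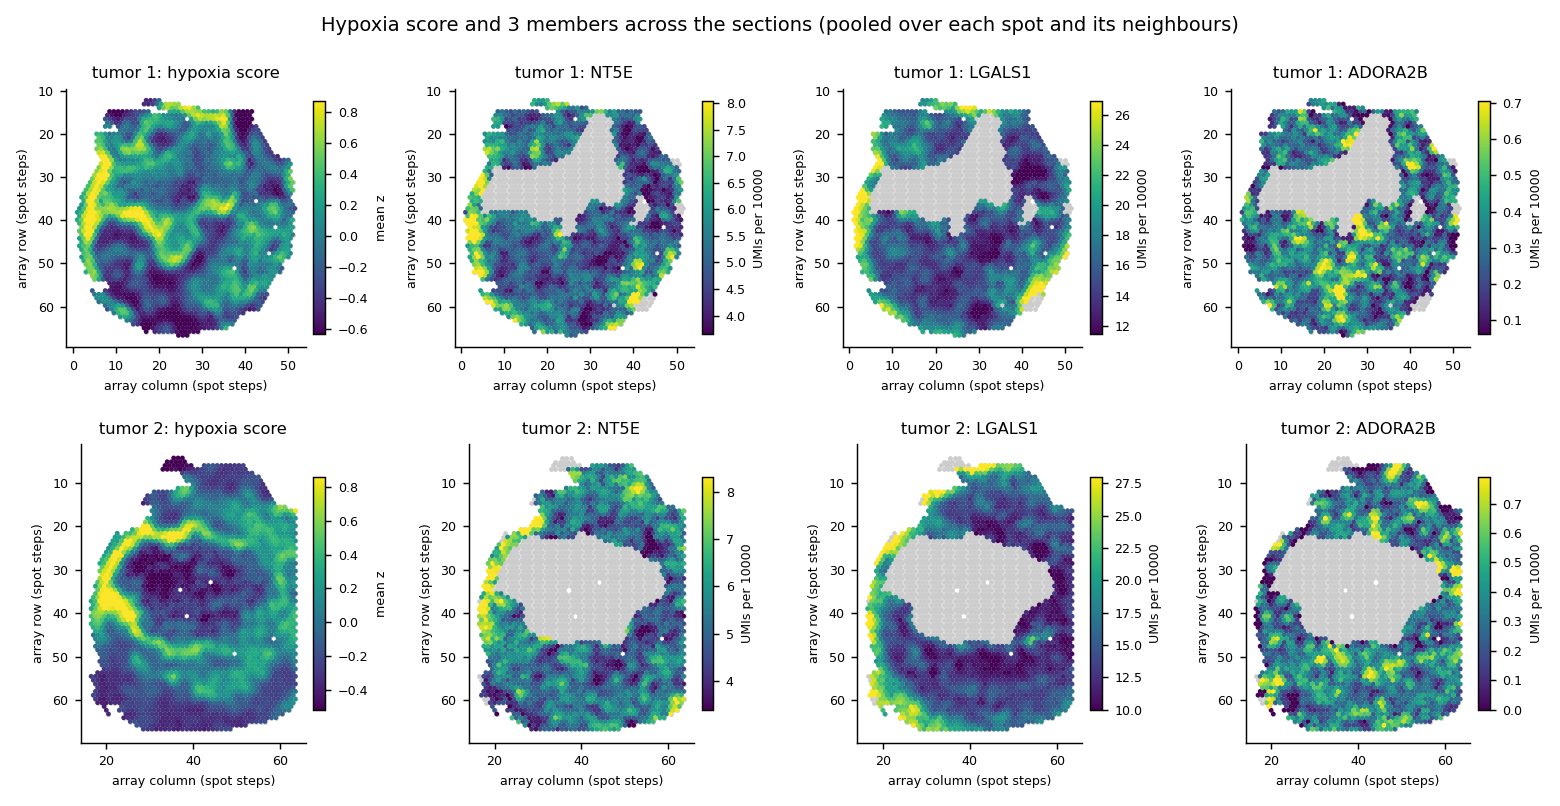
Hypoxia score (mean standardised level), and NT5E, LGALS1 and ADORA2B (UMIs per 10000, pooled over each spot and its adjacent spots) at the array positions of both sections, with axes in spot steps and the low-UMI area in grey for the genes. NT5E and LGALS1 are high along stretches of the tissue edge, and ADORA2B is scattered, with levels that rest on under 1 UMI per spot.

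Beside the hypoxic zone, no member passed the test. Spots under the median score were split by their distance to the high-score zone and matched on the score (424 spots a side in tumor 1, 444 in tumor 2). Of 13477 genes tested, 0.0445% were called higher and 0.26% lower near the zone, and none of the 8 members was called by edgeR or by DESeq2. At an unadjusted p under 0.05, edgeR found 766 genes, LGALS1 among them as the sole member. LGALS1 was at 1535 CPM far from and 1523 CPM near the zone in tumor 1, and at 1727 and 1420.5 CPM in tumor 2 (log2 -0.14 ± 0.04, edgeR adjusted p = 0.22). The log2 difference was -0.01 in tumor 1 and -0.28 in tumor 2. Fibroblast markers summed to 790 CPM far and 899.3 CPM near in tumor 1 and to 2153 and 1363 CPM in tumor 2, with 2 of 10 tested called lower near the zone. Muscle markers summed to 13.9 and 16.6 CPM in tumor 1 and to 1137 and 43.2 CPM in tumor 2, with 8 of 8 called lower. Without the spots richest in other-cell markers the LGALS1 value was -0.08 (edgeR adjusted p = 0.72). NT5E was at 500.1 CPM far and 492 CPM near in tumor 1 and at 516 and 522 in tumor 2, a log2 difference of 0.00 ± 0.05. ADORA2B had opposite signs in the tumors (0.13 and -0.18), and CD274, CD47, CD276, PVR and LGALS9 had fitted values between -0.08 and 0.12, each with an edgeR adjusted p of 0.999.

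The members differed in how many spots held them and in how their levels clustered in space. NT5E had a UMI in 97.0% of spots of tumor 1 and 87.7% of tumor 2, and LGALS1 in over 95% of spots of both. PVR was found in 68.0% and 57.6% of spots, CD47 in 63.0% and 49.7%, CD276 in 54.4% and 40.5%, and ADORA2B in 46.7% and 33.3%. CD274 was found in 21.1% and 14.4% of spots, with at most 4 UMIs in any of them, and LGALS9 in 3.15% and 1.20%. Spots with a UMI of a scarce member were deeper than the rest: the median depth was 31431 UMIs in the CD274 spots of tumor 1 against 23574 in all spots. The summed level of 15 macrophage markers was not higher in them, at 259 CPM in the CD274 spots of tumor 1 against 272 in all spots, and at 196 CPM in the LGALS9 spots of tumor 2 against 234. In the score zones this sum is mostly CD68, which rose with the score while other macrophage markers fell. The sum therefore does not show whether macrophage content differed in these spots.

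Moran's I, which is 0 for no spatial order and 1 for perfect clustering of like values, was 0.320 for LGALS1 in tumor 1 and 0.206 in tumor 2. These placed it at rank 64 of 6373 and rank 337 of 4695 genes that averaged 0.5 UMI or more a spot. The ranks were not adjusted for abundance, and the low-UMI area was kept. LGALS1 averaged 37.9 UMIs per spot in tumor 1 and 20.7 in tumor 2, NT5E 12.1 and 7.61, and CD47 1.33 and 0.885. Ranks of members that differ this much in abundance are therefore not directly comparable. NT5E had 0.137 (rank 420) in tumor 1 and 0.0997 (rank 2067) in tumor 2, the latter close to the median gene at 0.0908. CD47, CD276 and PVR lay on either side of the median gene. In tumor 1 (median gene 0.0421) they were at 0.0590, 0.0279 and 0.0245 (ranks 2064, 4447 and 4753). In tumor 2 they were at 0.0878, 0.0840 and 0.113 (ranks 2464, 2618 and 1671), so PVR was under the median gene in tumor 1 and above it in tumor 2. ADORA2B had 0.0568 in tumor 1 and was too scarce in tumor 2, as were CD274 and LGALS9 in both.

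The pattern of each member over the 16 sums (8 levels in 2 tumors, log2 of CPM + 1, centred within tumor) was set beside that of 6769 other genes. Neighbouring levels share sections and depth, so these correlations are descriptions. NT5E was most like VIM (r = 0.94), the intermediate filament of mesenchymal cells, the transmembrane collagen COL13A1 (0.94) and KTN1 (0.93). LGALS1 was most like RPS4X (0.96), a ribosomal protein, EMP3 (0.96) and PLEK2 (0.92), with an r over 0.91 within each tumor for all 3. ADORA2B was most like SMPD4 (0.88), NFKBIB (0.87) and the purine synthesis enzyme PAICS (0.86). The closest genes were GPAT4 (0.89), SLC25A10 (0.88) and LMNA (0.87) for CD276, RPUSD4 (0.88), PDHA1 (0.81) and NPM1 (0.81) for PVR, and YWHAE (0.87), INTS1 (0.86) and HNRNPLL (0.82) for CD274. For these 3 members r within a tumor ranged from 0.58 (INTS1 in tumor 1) to 0.97 (GPAT4 in tumor 2). It was also low for GPAT4 (0.62) and LMNA (0.65) in tumor 1 and for PDHA1 (0.60) in tumor 2. All listed genes were picked for the highest r among those searched, so a high r by itself says little. Among the members themselves, NT5E and ADORA2B had an r of -0.66 (-0.81 in tumor 1, -0.50 in tumor 2), while NT5E and LGALS1 had 0.97 in tumor 1 and 0.05 in tumor 2.

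Of 72 tested genes in 6 related lists, 9.72% rose and 9.72% fell with a high score (7 each), against 6.81% and 4.86% of all genes. Of 24 further adenosine genes in the files, 17 were tested, and 2 rose and 1 fell with a high score (median log2 fold change -0.18). The adenosine genes called were the ATP release channel PANX1, the ATP receptor P2RX4 and the ATP-cleaving enzyme ENPP1. PANX1 went from 18.1 to 29.7 CPM in tumor 1 and from 20.1 to 32.3 CPM in tumor 2 (log2 0.70 ± 0.11, edgeR adjusted p = 0.0050), and P2RX4 from 14.1 to 18.4 and from 11.3 to 19.8 CPM (0.56 ± 0.15, edgeR adjusted p = 0.039). The call of P2RX4 was lost in 6 alternative settings, and those of PANX1 and ENPP1 in 2 each. ENPP1 fell from 62.4 to 47.3 CPM and from 61.3 to 36.8 CPM (-0.55 ± 0.10, edgeR adjusted p = 0.010). The high zones of these 3 genes did not overlap their low zones. ENTPD1, which makes the AMP that NT5E cleaves, did not pass the filter on low counts, and the adenosine-clearing enzymes ADA (log2 0.25) and ADK (0.06) were not called.

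None of the 14 further checkpoint ligands tested, of 25 listed, was called by score in edgeR or DESeq2 (median log2 fold change 0.18). At an unadjusted edgeR p under 0.05 were 5 of the 14, against 3898 of all 14149 genes tested. Of 12 receptors 3 were tested, as PDCD1 and TIGIT, the receptors of PD-L1 and PVR, did not pass the filter. With human features only, this does not show that host cells lacked these receptors. SIRPA, the receptor of CD47, was lower in the high-score zone, from 4.84 to 3.74 CPM in tumor 1 and from 16.5 to 4.70 CPM in tumor 2 (log2 -1.14 ± 0.31, edgeR adjusted p = 0.041, with -0.36 in tumor 1 and -1.78 in tumor 2). It was also lower in the inner tertile (-0.99 ± 0.22, edgeR adjusted p = 0.0088, with -0.40 in tumor 1 and -1.53 in tumor 2). The call by score was lost with deciles and with no tumor block. By position it was lost with library size alone (edgeR adjusted p = 0.063), with no tumor block (edgeR adjusted p = 0.36) and in DESeq2 (adjusted p = 0.50). Macrophage markers summed to 253 CPM in the low and 308 CPM in the high zone of tumor 1 and to 278 and 242 CPM in tumor 2, with 11 to 14 of 15 detected per zone and S100A8 and ITGAM at 0 in both low zones and the high zone of tumor 1. The sums are mostly CD68, which was called higher by score (log2 0.68), while 3 of the 9 macrophage markers tested, AIF1, C1QB and TYROBP, were called lower (median of the 9 log2 -0.85). By position 7 of 10 were called lower (median log2 -1.19; 3 in DESeq2), and the sums went from 309 to 225 CPM in tumor 1 and from 254 to 221 CPM in tumor 2. Without the spots richest in other-cell markers SIRPA was at -1.34 by score (edgeR adjusted p = 0.0035) and -0.73 by position (edgeR adjusted p = 0.0071). Among 4 other galectins tested, LGALS8 was called higher, from 64.6 to 85.3 CPM in tumor 1 and from 59.4 to 76.8 CPM in tumor 2 (log2 0.39 ± 0.08, edgeR adjusted p = 0.017).

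Of 24 known regulators of CD274 and CD47, all tested, 3 rose and 5 fell with a high score (12.5% and 20.8%, against 6.81% and 4.86% of all genes), with a median log2 fold change of 0.11. IRF1, the interferon-responsive activator of CD274, fell from 32.0 to 20.7 CPM in tumor 1 and from 28.1 to 17.2 CPM in tumor 2 (log2 -0.67 ± 0.11, edgeR adjusted p = 0.0069). HIF1A, a subunit of the hypoxia-inducible factor, had a log2 fold change of -0.51 ± 0.08 (edgeR adjusted p = 0.0036), and the CD47 ligand THBS1 one of -0.45 ± 0.08 (adjusted p = 0.010). EPAS1, which encodes HIF-2 alpha, was higher (0.43 ± 0.11, edgeR adjusted p = 0.035). CMTM6, which stabilises PD-L1 protein (log2 -0.02), and QPCTL, which modifies CD47 (0.04), were not called. Of 10 NK cell ligands tested, the adhesion molecule ICAM1 alone was called, higher in the high-score zone going from 43.9 to 73.6 CPM in tumor 1 and from 26.7 to 67.3 CPM in tumor 2 (log2 0.99 ± 0.13, edgeR adjusted p = 0.0017), and higher in the inner tertile (0.45 ± 0.08, edgeR adjusted p = 0.0011). Of the genes of these 6 lists, SIRPA and ICAM1 were the sole ones called by position in edgeR. At an unadjusted edgeR p under 0.05 were 13 of 74, against 2894 of all 14758 genes tested. Beside the hypoxic zone edgeR called none, with 4 of 68 at an unadjusted p under 0.05 against 766 of all 13477 genes. DESeq2 called none in either comparison. By score, DESeq2 called ICAM1, HIF1A and THBS1 of the genes named here. It gave SIRPA no adjusted p, and the other named calls were lost in it.

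**Figure D4:**
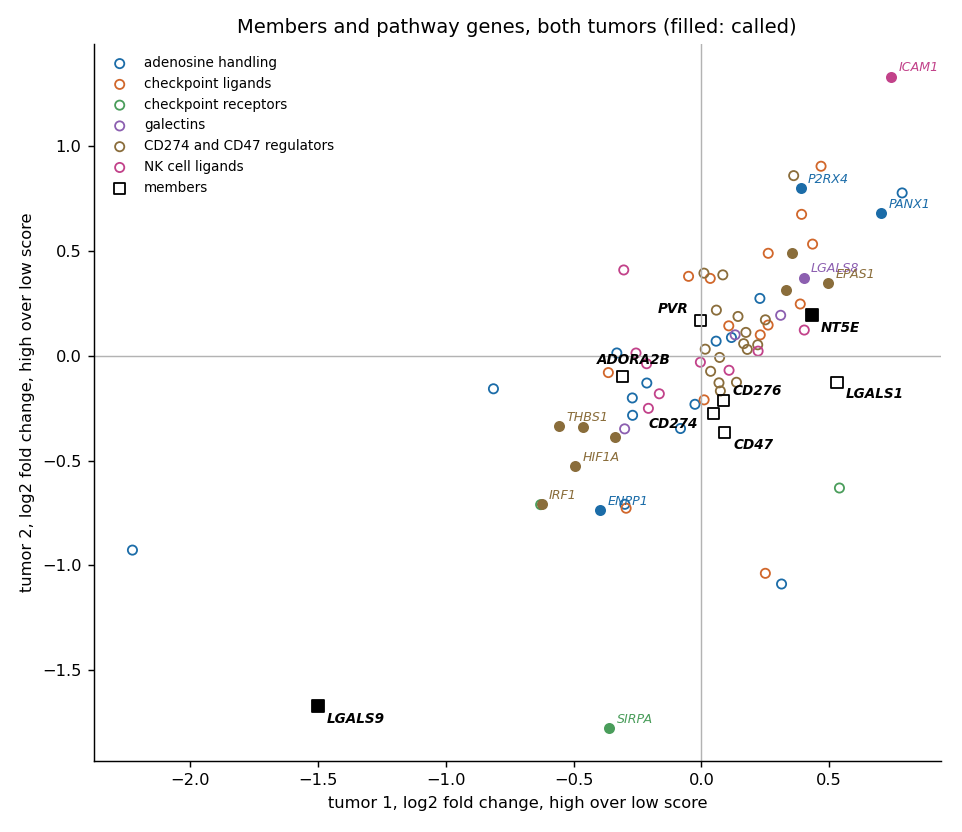
Log2 fold change of the high-score over the low-score zone in tumor 1 (horizontal axis) and tumor 2 (vertical axis) for the 8 members (squares) and the tested genes of 6 related lists (circles), filled where called, with up to 4 called genes named per list. ICAM1 (0.74 and 1.33) and PANX1 (0.70 and 0.68) are at the upper right, LGALS9 at the lower left, and LGALS1, CD47, CD276 and CD274 have opposite signs in the tumors with this TMM scaling, which on library totals held for LGALS1 but not for the other 3.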

How the data were processed

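The deposited counts are UMI counts per gene and spot of 2 Visium libraries, for which the file headers name Space Ranger 1.3.0 and the submitters' processing notes name hg38. The matrix holds human features only, so host reads assigned to a human gene are counted with it. Tissue spots under 500 UMIs were left out, and depth was a median of 23574 UMIs per spot in tumor 1 and 15895 in tumor 2. Intervals cover counting error only.

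The score averaged standardised log2(1 + UMIs per 10000) of 28 genes over a spot and its neighbours. UMIs were summed per tumor and zone (4 sums) and fitted in edgeR 4.0.16 (R 4.3.3) with TMM scaling, filterByExpr, the tumor as a block and a quasi-likelihood test, with genes called under 0.05 after Benjamini-Hochberg adjustment. Score genes were not tested in the high against low and the near against far comparisons, but were among the genes tested by position. Log2 fold changes of a single tumor used 2 as prior count. The block leaves 1 residual degree of freedom, so spread is largely borrowed across genes. Each SE is the fitted log2 coefficient divided by the square root of the test's F statistic. Border steps counted off-tissue areas of 5 or more positions, not the frame edge. The low-UMI area came from an Otsu threshold on smoothed UMIs. The test was run on simulated counts with known changes. Alternatives covered DESeq2 1.42.0, scaling, filters, depth, spot choice, zones and each tumor left out, and leaving the low-UMI area out of the levels was added after seeing the data. Spots of a section are not replicates and were not tested, and no doublet step applies.

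The members and lists were chosen with earlier results of these data known. Named are all members, up to 4 called genes per related list by score and up to 2 in each other comparison by absolute log2 fold change, the 3 genes most like each member above 5 CPM (searched above 20 CPM; those of CD47 are not reported here), and the copies LGALS9B and LGALS9C. CD3D, CD8A, the called macrophage markers and genes named as not called or not tested were added for context after their values were seen. Positions and upstream sequences came from RefSeq tables on GRCh38.p14, in which all 8 members had a position and 7 an upstream sequence. The rest was done in Python 3.11.15 (scipy 1.17.1, numpy 2.4.6, matplotlib 3.10.9, pandas 2.3.3).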

Additional observations from a re-analysis of the deposited data

How the results depend on the processing

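With 2 tumors, calls depend on variance shared across genes. In the high against low score comparison 1650 genes were called, and 2690 with at least 2000 UMIs per spot, 593 with thinned spots, 2692 without spots rich in other-cell markers, 2606 with an unsmoothed score, 2520 and 2581 with a score from every other gene of the list, 2550 with no filter, 577 with no tumor block and 384 in DESeq2. Of the 2 members called, 1 was left with tertiles, with deciles, with depth matching and with library size alone, and 0 with thinned spots, no tumor block and DESeq2, which gave LGALS9 no adjusted p. In the inner against outer comparison 836 genes were called, and 1332 with at least 2000 UMIs, 308 thinned, 405 with a median split, 1395 with the frame edge as border, 390 with library size alone, 41 with no block and 102 in DESeq2. Its 3 member calls became 5 with at least 2000 UMIs, without the low-UMI area and with the frame edge as border (CD276 and NT5E added), 1 with thinned spots, the median split, library size alone and DESeq2, and 0 with no block. Near against far, 41 calls became 8 with at least 2000 UMIs and without other-cell-rich spots, 6 thinned, 21 without the low-UMI area, 64 unmatched, 10 with other distances, and 0 with no block and in DESeq2. The causes were not tested beyond what each setting removes. No paired analysis by replicate number was possible because both tumors form a single group; the tumor is the block of each fit. No called member turned its sign under any setting run. Of 287 alternative tests of single members, 241 kept their direction and side of the threshold, 19 lost and 8 gained a call, and 19 changed sign without being called in the reported fit. With 1 tumor alone, which gives no test, 35 of 48 values had the sign of the fit. Of 24 alternative top-to-bottom level differences, 4 moved by over 1 SD of the tumors, and the value of PVR, near 0, changed sign in 2 others. For the named genes of related lists, 141 of 170 alternative tests kept their call and 29 lost it, 8 in DESeq2, 7 with no block, 6 with thinned spots, 4 with library size alone, 3 with deciles and 1 with depth matching. By gene, the losses were 6 for P2RX4, 5 for EPAS1 and 4 for LGALS8. They were 2 each for PANX1, ENPP1, IRF1 and SIRPA by score, and 3 each for SIRPA and ICAM1 by position. A transcript as scarce as LGALS9 or CD274 allows no statement on small differences at this depth.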
